A study of Rattus norvegicus with 12 samples.

Results

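The AMPA receptor genes described here are the 4 pore subunits Gria1 to Gria4, the transmembrane AMPA receptor regulatory proteins (TARPs) Cacng2, Cacng3 and Cacng8, and the cornichon Cnih2, 8 genes of the 10411 named on the array. Members were chosen by gene symbol: every probe set annotated to a single symbol on this list was taken, which gave 11 probe sets. A probe set is a group of short array probes that reports 1 transcript stretch. RNA came from the microdissected CA1 field of the hippocampus of 12 male Long-Evans rats aged 3 to 4 months, 1 Affymetrix RAE230A array per rat. Every rat had earlier learned a standard water maze, and 2 to 3 weeks later swam 8 trials, 8 minutes apart, in an unfamiliar maze. In the spatial learning group (6 rats) the visible platform stayed in 1 place among orienting cues. In the control task group (6 rats) the visible platform moved between trials and informative cues were missing. All rats then had a probe trial of 90 seconds with no platform, 1 hour after the last trial, and were killed at once, so both groups share swimming, handling, earlier maze training and the probe trial.

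AMPA receptors are glutamate-gated cation channels built from 4 subunits, and they carry most of the fast excitatory current at the synapses of CA1 pyramidal cells. The Gria2 subunit, once its transcript has been edited, keeps calcium out of the channel, while the Gria1 subunit is the one best known for activity-dependent delivery to CA1 synapses. TARPs and cornichons travel with the receptor, help it to the surface and slow its closing. Receptor number at synapses is set to a large extent by protein trafficking and phosphorylation, which RNA levels do not report.

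None of the 10 member probe sets bright enough to test passed the learning versus control comparison at an adjusted p under 0.05 (limma, Benjamini-Hochberg adjustment over 9610 probe sets). The background was the same: 0% of all tested probe sets were called in either direction. An exact rank-sum test per probe set also gave 0 calls, with 896 at an unadjusted p under 0.05, among them Cacng3 and Cnih2 (exact p = 0.0260 and 0.0411). Since its smallest p with 6 against 6 arrays is 0.00216, that test could call none unless far more probe sets separated the groups than the 61 that did, so its 0 adds nothing. Cacng3 was the member with the smallest p, 0.37 higher on the log2 scale after spatial learning, with an adjusted p of 0.388. Mean differences of the pore subunits Gria1, Gria2 and Gria3 lay between -0.05 and 0.06 on the log2 scale. Gria4 was near the bottom of the array's range in every rat. Over the 10 tested probe sets 6 were higher and 4 lower, with a median difference of 0.01, beside 53.7% higher and a median of 0.01 over all tested probe sets. At an unadjusted limma p under 0.05 there was 1 member, Cacng3, where 10.9% of all tested probe sets lay under that level, 6.36% higher and 4.55% lower in learning arrays.

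All levels are log2 signal as deposited, and all differences are spatial learning minus control task. In whole CA1 tissue, fewer cells of a type and less RNA per cell cannot be told apart. Correlations between arrays over all probe sets lay between 0.996 and 0.998. Of 8 listed CA1 pyramidal markers 6 had a probe set, all above the level tested, with a mean level from 10.61 to 10.91 in control arrays and from 10.67 to 11.04 in learning arrays. Markers of other cells were present too: at a level of 4 or more were 4 of 4 CA3 markers with a probe set, 5 of 7 dentate granule, 8 of 9 interneuron, 10 of 10 astrocyte, 8 of 8 oligodendrocyte, 4 of 5 oligodendrocyte precursor, 6 of 8 microglial and 5 of 7 vessel markers. Those below it were Dsp and Tdo2 (dentate granule), Calb2 (interneuron), Cspg4 (precursor), Cx3cr1 and Cd68 (microglia) and Kdr and Pecam1 (vessel). Choroid plexus had 3 of 7 markers at a level of 4 or more, with F5, Kcnj13, Folr1 and Kl below it. Meninges had 6 of 8, with Col1a2 and Lum below it. Some arrays stood apart in the means of these tested markers. The choroid plexus mean was 9.49 in control array 3. The meningeal mean was 7.95 in control array 6 and 7.70 in learning array 6. The 3' minus 5' signal of the hexokinase control, a measure of RNA integrity and labelling, was 1.48 ± 0.08 (SD, n = 6) in control arrays and 1.65 ± 0.11 (n = 6) in learning arrays (2-sided exact permutation p = 0.00433). The other controls of this kind differed less. Beta-actin gave 1.83 ± 0.09 and 1.93 ± 0.07 (exact permutation p = 0.0779). GAPDH gave 0.37 ± 0.06 and 0.37 ± 0.08 (exact permutation p = 0.998). Member differences without those 3 arrays and with the hexokinase gap as a covariate are given beside the results they move most.

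The pore subunits come first. Gria1 encodes GluA1, and its probe set (1371013_at) read 10.72, 10.86 and 11.55 (lowest, median, highest) in control arrays and 10.23, 11.09 and 11.32 in learning arrays. The learning group held the lowest rat and the control group the highest, so each group enclosed most of the other, although 5 of 6 learning arrays lay above the control median. Group means were 10.94 ± 0.31 (SD, n = 6) and 10.96 ± 0.38 (n = 6), a difference of 0.02 (SE 0.18, 95% interval -0.36 to 0.39, limma adjusted p = 0.983). As a ratio the interval runs from 0.778 to 1.31, so a Gria1 change of up to about that size could not have been told from none here. Without control arrays 3 and 6 and learning array 6, the Gria1 difference was 0.28 (limma adjusted p = 0.203), and with the hexokinase covariate it was 0.17 (limma adjusted p = 0.913).

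Gria2 encodes GluA2, the subunit that sets calcium permeability, and it had a pair of probe sets. The first (1368401_at) read 12.14, 12.23 and 12.37 (lowest, median, highest) in control arrays and 11.95, 12.25 and 12.30 in learning arrays. Its difference was -0.04 (SE 0.06, 95% interval -0.17 to 0.09, limma adjusted p = 0.841). The second (1387171_at) read 12.08, 12.18 and 12.25 in control arrays and 12.07, 12.27 and 12.34 in learning arrays. For this probe set 3 of 6 learning arrays lay above every control array, and the rest fell inside or just under the control range. Its difference was 0.06 (SE 0.05, interval -0.05 to 0.17, limma adjusted p = 0.711). Both Gria2 probe sets varied little between rats, with within-group SDs at percentiles 42.7 and 31.2 of all tested probe sets.

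Gria3 encodes GluA3, which pairs with GluA2 in a second population of CA1 receptors. Its brighter probe set (1376892_at) read 10.79, 11.00 and 11.11 (lowest, median, highest) in control arrays and 10.73, 10.98 and 11.10 in learning arrays, ranges that nearly coincide. The difference was -0.05 (SE 0.07, 95% interval -0.19 to 0.10, limma adjusted p = 0.844). The dimmer Gria3 probe set (1368691_at) read 8.17, 8.38 and 9.10 in control arrays and 7.96, 8.48 and 9.01 in learning arrays. Here too the groups overlapped, and the spread was wide, with a difference of 0.01 (SE 0.17, interval -0.36 to 0.38, limma adjusted p = 0.992). Within-group spread of this probe set was at percentile 96.7 of all tested probe sets, against 54.0 for the brighter one. Without the 3 arrays that stood apart, the difference of the dimmer Gria3 probe set was 0.24 (limma adjusted p = 0.470), and with the hexokinase covariate it was 0.10 (limma adjusted p = 0.949).

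Gria4 encodes GluA4, a subunit better known from interneurons and from early development than from adult pyramidal cells. Its probe set (1369384_at) read 2.46, 2.52 and 2.64 in control arrays and 2.50, 2.51 and 2.52 in learning arrays, all below the level of 4 set for testing, so only these values are given. Readings so close together at so low a level carry no information on a difference.

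**Figure D1:**
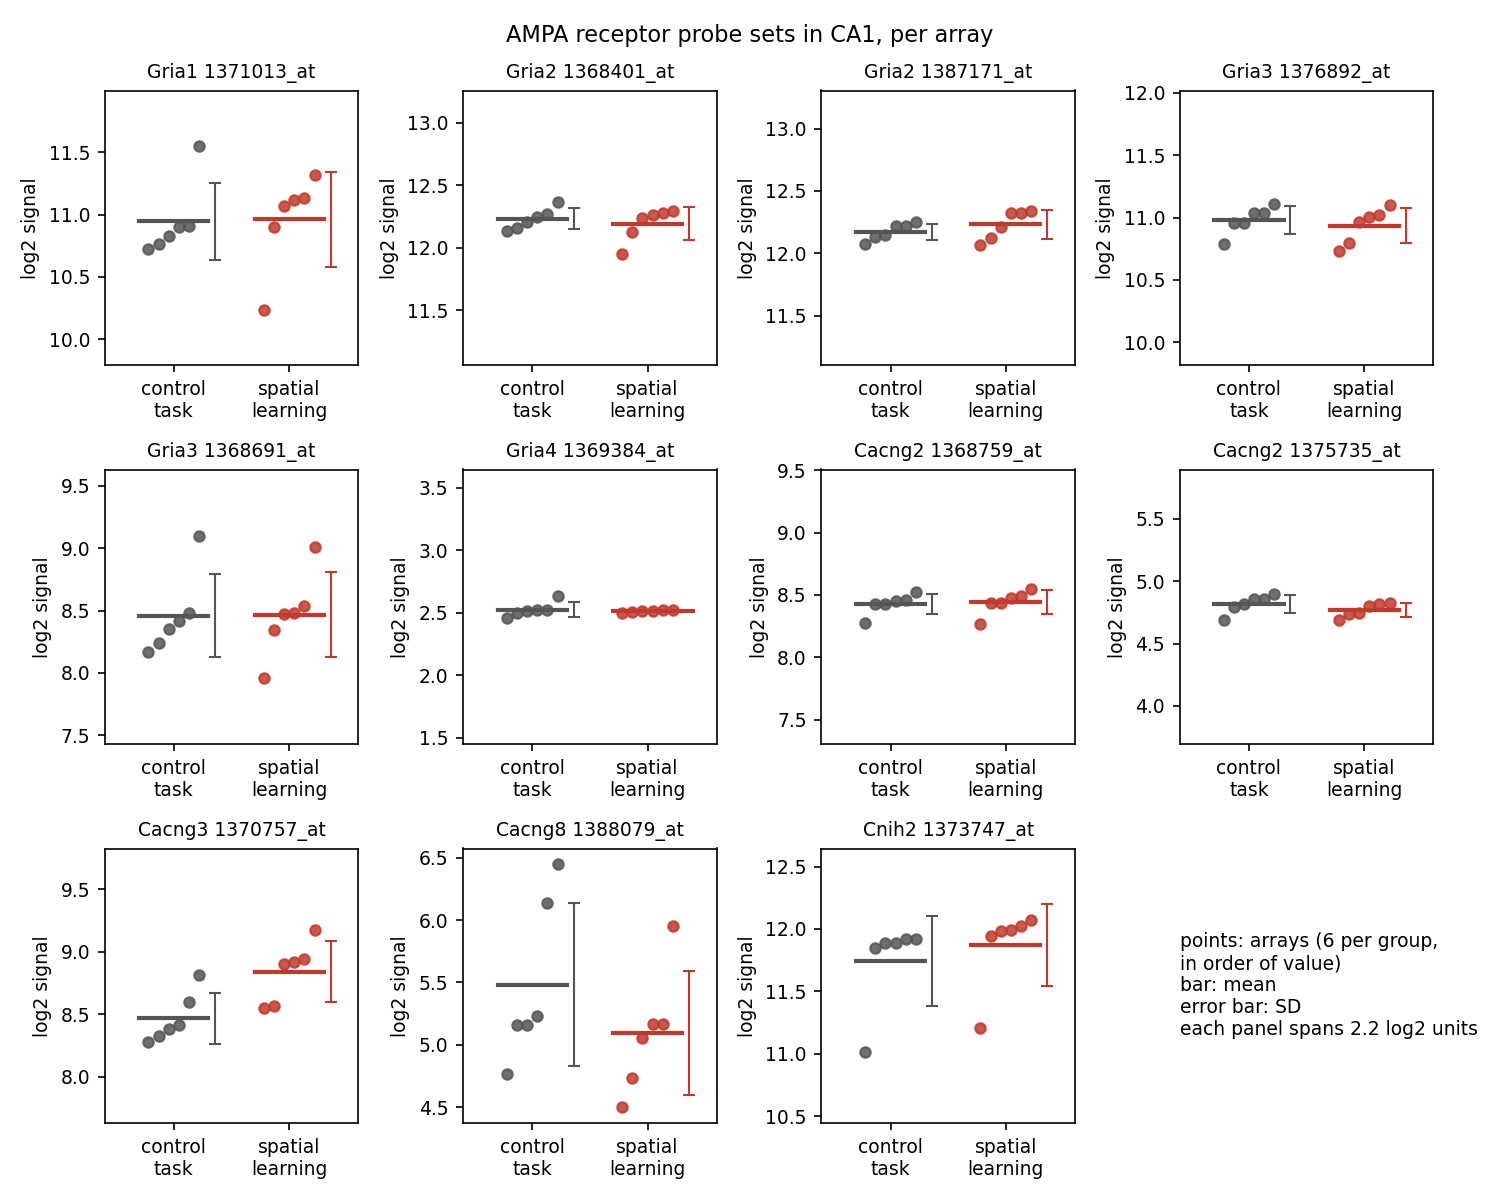
Log2 signal (vertical axis) of each of the 11 member probe sets in each array, control task and spatial learning side by side, with every panel of the same height; points are rats and the bar is the group mean ± SD (n = 6). The learning points of Cacng3 sit higher (8.55 to 9.18 against 8.28 to 8.82), while Gria1, Cacng8 and Cnih2 each have 1 to 3 arrays far from their group.

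Among the TARPs, Cacng2 encodes stargazin, the founding member, whose loss in the stargazer mouse removes AMPA receptors from cerebellar granule cell synapses. Cacng3 encodes TARP gamma-3, and Cacng8 encodes TARP gamma-8, which is prominent in the hippocampus and is needed for normal receptor numbers in CA1. Promoter sequences of these related genes are shown so that the starts of the 3 TARP genes can be set side by side. They are RefSeq sequences of the GRCr8 build, 250 bases before to 50 bases after the annotated start, printed 5′ to 3′ on the gene's strand. Capitals mark each match on either strand to the GC box GGGCGG, the letters bound by Sp1, or to the core TGACG of the cAMP response element. The windows are Cacng3 at chr1:186632312-186632611 (plus strand), Cacng2 at chr7:111577708-111578007 (minus strand) and Cacng8 at chr1:74690954-74691253 (minus strand).
Cacng3: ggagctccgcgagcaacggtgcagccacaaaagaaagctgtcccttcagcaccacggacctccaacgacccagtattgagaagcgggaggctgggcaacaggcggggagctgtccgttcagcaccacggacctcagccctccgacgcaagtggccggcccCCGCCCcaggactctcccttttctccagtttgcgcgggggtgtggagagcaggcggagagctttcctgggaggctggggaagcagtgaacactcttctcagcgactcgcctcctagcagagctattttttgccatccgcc
Cacng2: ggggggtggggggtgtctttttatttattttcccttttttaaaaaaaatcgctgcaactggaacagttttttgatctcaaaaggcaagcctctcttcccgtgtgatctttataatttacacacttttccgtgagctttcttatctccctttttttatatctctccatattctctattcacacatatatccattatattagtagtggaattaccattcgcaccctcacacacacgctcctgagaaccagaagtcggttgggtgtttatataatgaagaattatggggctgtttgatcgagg
Cacng8: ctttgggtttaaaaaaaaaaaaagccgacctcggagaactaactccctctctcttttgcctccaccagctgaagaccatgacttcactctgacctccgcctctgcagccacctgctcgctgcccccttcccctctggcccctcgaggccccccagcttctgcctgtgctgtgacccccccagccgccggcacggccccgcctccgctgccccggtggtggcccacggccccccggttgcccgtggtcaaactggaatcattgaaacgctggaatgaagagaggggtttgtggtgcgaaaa
The Cacng3 window held 1 GC box match, while Cacng2 and Cacng8 held none. Of 33469 promoter windows of this length 33.1% held a GC box, 21.2% the core TGACG, 1.83% the full element TGACGTCA, 6.42% the E-box CACGTG and 7.33% the AP-1 letters TGANTCA, each counted on both strands. None of these letters other than the GC box was in the windows of the 5 members that the table holds, Gria4, Cacng2, Cacng3, Cacng8 and Cnih2. Cacng2 also differed in composition, with 39% G and C and 7 CpG pairs, beside 63% and 19 CpG pairs for Cacng3 and 61.7% and 16 CpG pairs for Cacng8. Cnih2 held 3 GC box matches and 24 CpG pairs. The median over all 33469 windows was 7 CpG pairs, the count of Cacng2. A match of letters is a description of the window and not a binding site.

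Cacng3 (1370757_at) read 8.38, 8.42, 8.32, 8.60, 8.28 and 8.82 in control arrays 1 to 6 and 9.18, 8.92, 8.56, 8.94, 8.90 and 8.55 in learning arrays 1 to 6. All 6 learning arrays lay above the control median and 4 above the highest control array, while learning arrays 3 and 6 fell inside the control range. Group means were 8.47 ± 0.20 (SD, n = 6) and 8.84 ± 0.24 (n = 6). The difference was 0.37 (SE 0.12, 95% interval 0.12 to 0.63), or 1.30-fold (1.09 to 1.54). On its own this difference has a 2-sided exact permutation p of 0.0195, from the 924 splits of the arrays into equal groups, and no split can give less than 0.00216. Set among 9610 probe sets it ranked at 163 by p, and the limma adjusted p was 0.388, so it did not pass. The Cacng3 difference was 0.48 without the 3 arrays that stood apart (limma adjusted p = 0.145). With the CA1 pyramidal marker mean of each array as a covariate, an alternative added after the values were seen, it was 0.08 (limma adjusted p = 0.931).

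The Cacng3 level moved with the markers of CA1 pyramidal cells. The 6 CA1 markers were all higher in learning arrays, by a median of 0.20, with none past the adjusted threshold. The 5 tested dentate granule markers were all lower, by a median of -0.23, and so were the 6 tested microglial markers, by a median of -0.11, again with none past the threshold. Across the 12 arrays, after each group's mean was subtracted, Cacng3 and the CA1 marker mean had r = 0.78 (Spearman rho 0.62), and r = 0.60 without control array 6 and learning array 6. The astrocyte marker mean gave r = -0.76 with Cacng3, and -0.59 without learning arrays 1 and 3. The oligodendrocyte precursor mean gave r = -0.82, and -0.59 without control array 6 and learning array 1. Over all 12 arrays r was -0.60 for oligodendrocyte, -0.58 for interneuron, -0.52 for microglial, -0.45 for CA3 and -0.32 for vessel markers. It was -0.09 for choroid plexus, 0.01 for dentate granule and 0.03 for meningeal markers. Astrocyte markers averaged 11.07 to 11.20 in control arrays and 10.95 to 11.14 in learning arrays, with 2 higher and 8 lower. Oligodendrocyte precursor markers averaged 7.68 to 7.91 and 7.57 to 7.93. These values share arrays and dissections, and the part of tissue makeup in the Cacng3 difference was not tested. The CA1 marker mean was itself higher in learning arrays (10.91, against 10.71 in control arrays). The covariate fit above therefore cannot separate tissue makeup from a change with learning.

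Cacng2, by contrast, read almost the same in every rat. Its brighter probe set (1368759_at) gave 8.28, 8.44 and 8.52 (lowest, median, highest) in control arrays and 8.27, 8.46 and 8.54 in learning arrays. The groups overlapped almost fully, with a difference of 0.01 (SE 0.05, 95% interval -0.10 to 0.13, limma adjusted p = 0.949). The dimmer Cacng2 probe set (1375735_at) gave 4.69, 4.84 and 4.90 in control arrays and 4.69, 4.77 and 4.83 in learning arrays. No learning array of that probe set lay above the control median, yet the difference was small, -0.05 (SE 0.04, interval -0.14 to 0.05, limma adjusted p = 0.728). Spread within groups was at percentiles 26.0 and 10.8 of all tested probe sets.

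Cacng8 (1388079_at) varied most between rats of all members. It read 4.77, 5.20 and 6.45 (lowest, median, highest) in control arrays and 4.50, 5.11 and 5.95 in learning arrays. Control array 2 (6.45), control array 4 (6.14) and learning array 5 (5.95) stood well above the remaining arrays, and the groups overlapped. Means were 5.48 ± 0.66 (SD, n = 6) and 5.10 ± 0.50 (n = 6), a difference of -0.39 (SE 0.29, 95% interval -1.02 to 0.25, limma adjusted p = 0.668). As a ratio, the Cacng8 difference was 0.764 with an interval from 0.492 to 1.19. It was -0.19 without control array 2, -0.26 without control array 4 and -0.56 without learning array 5, and also -0.56 without the 3 arrays that stood apart from the rest in their markers. Its within-group SD was at percentile 99.5 of all tested probe sets, so this probe set could not show a change of the size seen for Cacng3.

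Cnih2 encodes cornichon-2, which binds the same receptors as TARP gamma-8 in hippocampal neurons and slows their deactivation. Its probe set (1373747_at) read 11.01, 11.89 and 11.92 (lowest, median, highest) in control arrays and 11.20, 11.99 and 12.07 in learning arrays. In each group 1 array stood far below the rest, control array 4 at 11.01 and learning array 2 at 11.20. The other 5 learning arrays all lay above every control array, by small steps. The difference of means was 0.12 (SE 0.17, 95% interval -0.25 to 0.50, limma adjusted p = 0.833). Without learning array 2 it was 0.26 (limma adjusted p = 0.540), and without control array 4 it was -0.022 (limma adjusted p = 0.979). Each of these fits left the low array of the other group in place, and a fit without both was not run. With the hexokinase covariate the Cnih2 difference was 0.22 and without the 3 arrays that stood apart 0.19 (limma adjusted p = 0.886 and 0.761).

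**Figure D2:**
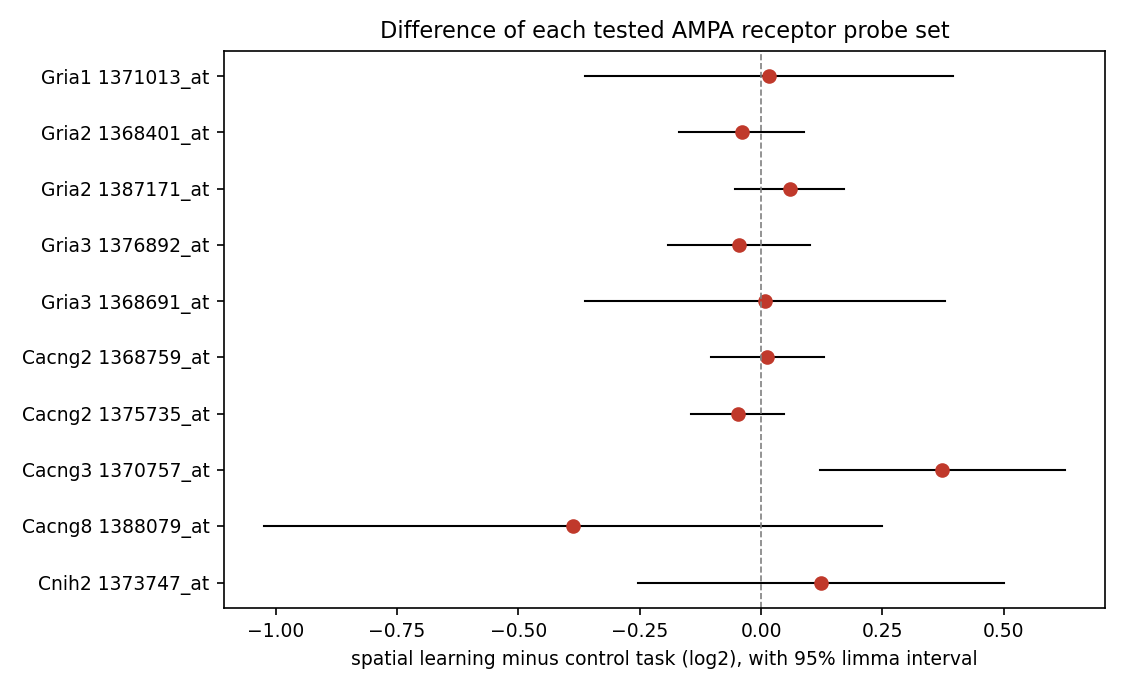
Difference of each of the 10 tested member probe sets, spatial learning minus control task (log2, horizontal axis), with its 95% interval from limma (6 arrays per group). The Cacng3 interval (0.12 to 0.63) is the one that leaves out 0, while 7 of the 10 lie within 0.5 of 0 on both sides.

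How far these intervals exclude a change depends on the gene. For 7 of the 10 probe sets, those of Gria1, Gria2, Gria3 and Cacng2, the whole 95% interval lay within 0.5 of 0 on the log2 scale. Cacng3 and Cacng8 reached further, and the upper end for Cnih2 lay at that limit. The median SE over all tested probe sets was 0.07, which Gria1, the dimmer Gria3 probe set, Cacng3, Cacng8 and Cnih2 exceeded.

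Signal levels of different probe sets cannot be read as an order of transcripts, because each probe set has its own response to a given amount of RNA. The members themselves show this. The 2 probe sets of Gria3 differed by 2.49 ± 0.33 (SD over 12 arrays) and those of Cacng2 by 3.64 ± 0.13, although each pair is annotated to 1 gene. Those of Gria2 differed by 0.01 ± 0.12. By signal alone, the members' brightest probe sets ran from Gria2 (mean 12.21) through Cnih2 (11.81), Gria3 (10.96), Gria1 (10.95), Cacng3 (8.66), Cacng2 (8.44) and Cacng8 (5.29) to Gria4 (2.52). Gria3 and Gria1 lie closer together than the spread between rats, and the gaps of 2.49 and 3.64 within a gene are larger than most steps in that list.

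What can be compared is how each pair of probe sets moved between groups. The gap between brighter and dimmer probe set was tested in the same way over the 1144 such pairs of the array, of which 0.262% were called. For Gria2 the gap was 0.06 in control arrays and -0.04 in learning arrays, a difference of -0.10 (SE 0.07, 95% interval -0.25 to 0.05, limma adjusted p = 0.630). For Gria3 it went from 2.52 to 2.47 (difference -0.05, limma adjusted p = 0.938), and for Cacng2 from 3.61 to 3.67 (difference 0.06, limma adjusted p = 0.843). No member pair was called, and at an unadjusted p under 0.05 the count was 0 of 3, beside 10.1% of all pairs. From rat to rat the pairs did not track each other closely: deviations from group means had r = 0.45 for the Gria2 pair, 0.10 for the Gria3 pair and -0.43 for the Cacng2 pair over 12 arrays.

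The balance of subunits was followed as each probe set minus Gria2 (1368401_at) on the same array, a ratio that shows unequal change only. Over the array 0.0104% of 9609 probe sets were called on that measure. Gria1 relative to Gria2 was -1.29 in control arrays and -1.23 in learning arrays, a difference of 0.06 (SE 0.13, 95% interval -0.21 to 0.32, limma adjusted p = 0.953). Gria3 (1376892_at) relative to Gria2 was -1.25 in both groups, and Cnih2 differed by 0.16 (limma adjusted p = 0.909). Cacng3 relative to Gria2 went from -3.76 to -3.35, a difference of 0.41 (SE 0.10, interval 0.21 to 0.62, limma adjusted p = 0.250). With the other Gria2 probe set as reference that difference was 0.31 (limma adjusted p = 0.571). Cacng3 was the 1 member with an unadjusted p under 0.05 on this measure, beside 6.47% of all probe sets, and no member was called.

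Although the groups differed little, some members varied together from rat to rat. Gria1 and the dimmer Gria3 probe set had r = 0.92 (rho 0.85) over 12 arrays after group means were subtracted, and r = 0.84 without control array 6 and learning array 6, those farthest out for Gria1. Control array 6 was 0.61 above its group mean for Gria1 and 0.64 above for this Gria3 probe set. Learning array 6 deviated by -0.73 and -0.51 for the same probe sets. Of the 9609 other tested probe sets, the dimmer Gria3 probe set ranked at 4 by r with Gria1. Gria1 and Gria2 (1368401_at) had r = 0.80 (rho 0.71), which fell to 0.43 without those 2 arrays. The other probe sets of the same genes did not share this: Gria1 had r = 0.13 with Gria2 1387171_at and r = 0.17 with Gria3 1376892_at. These are 4 of 45 member pairs and are given as a description, since both probe sets of a pair were read on the same arrays.

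**Figure D3:**
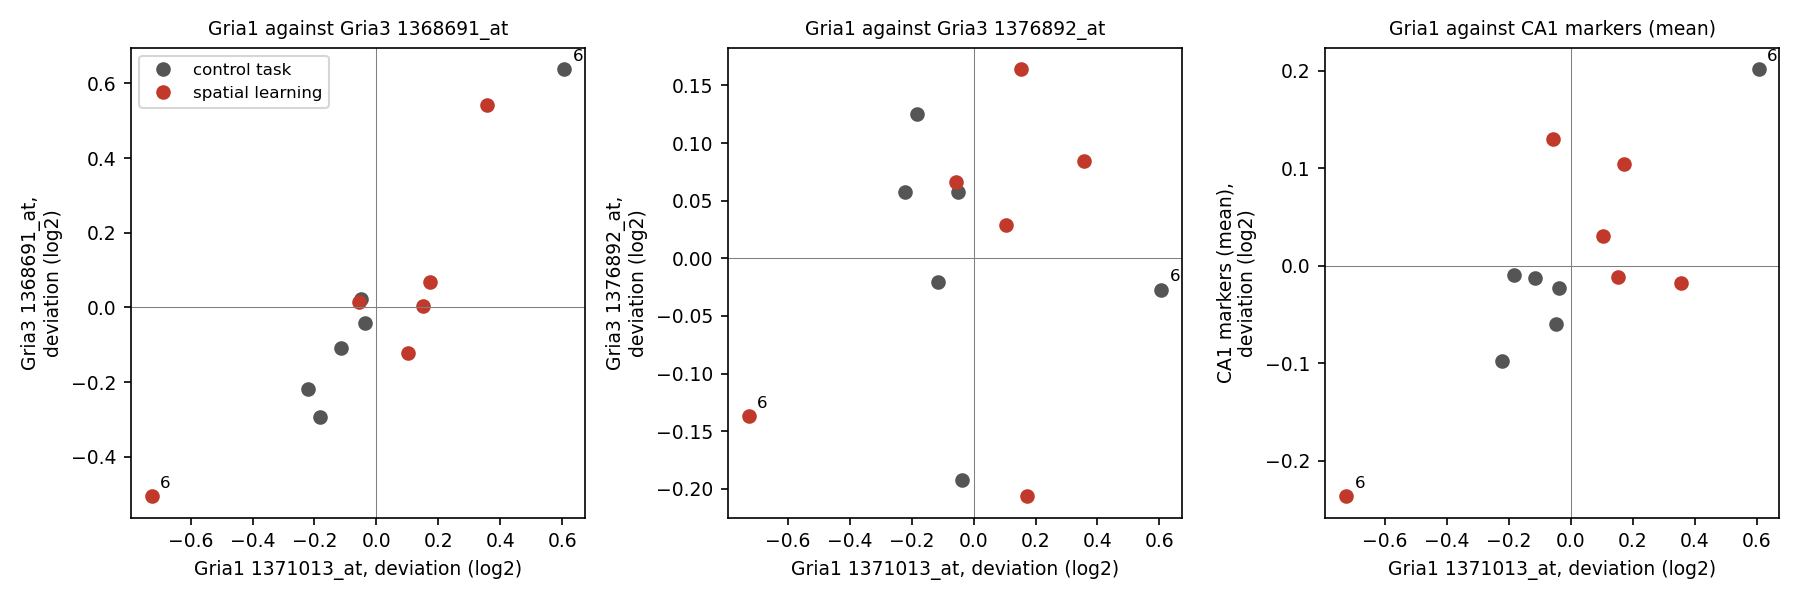
Deviation of each array from its group mean (log2) for Gria1 (horizontal axes) against the dimmer and the brighter Gria3 probe set and the CA1 marker mean (vertical axes), 12 arrays, with array 6 of each group labelled. Those arrays sit at the ends of the Gria1 axis (0.61 and -0.73), and r with the dimmer Gria3 probe set is 0.84 without them.

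Those same arrays stood apart in tissue markers as well. Control array 6 had the highest CA1 marker mean of its group (10.91) and the lowest oligodendrocyte (10.47) and interneuron (8.08) means, whereas learning array 6 had the lowest CA1 mean of its group (10.67) and the highest oligodendrocyte (10.89) and interneuron (8.46) means. Gria1 and the CA1 marker mean had r = 0.81 (rho 0.57) over 12 arrays, and 0.30 without those arrays. Gria2 (1368401_at) had r = 0.87 with the CA1 mean and 0.66 without control array 6 and learning array 6, and r = -0.85 with the oligodendrocyte mean. The dimmer Gria3 probe set had r = 0.68 with the CA1 mean and 0.15 without the same arrays. Over all 12 arrays r with the CA1 mean was near 0 for Gria3 1376892_at (0.04), Cacng2 1368759_at (0.02) and Cnih2 (0.05). It was 0.37 for Gria2 1387171_at, 0.42 for Cacng2 1375735_at and -0.22 for Cacng8. Without control array 6 and learning array 6 these values were -0.28, 0.10, 0.04, 0.35, 0.48 and -0.18 in the same order. Gria2 1387171_at and Cacng2 1375735_at then lay above Gria1. With the CA1 mean as a covariate, added after the values were seen, the Gria1 difference was -0.46 (limma adjusted p = 0.565) in place of 0.02. The CA1 mean was itself higher in learning arrays, so this fit cannot separate tissue makeup from a change with learning. The part of tissue makeup in these differences was not tested.

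**Figure D4:**
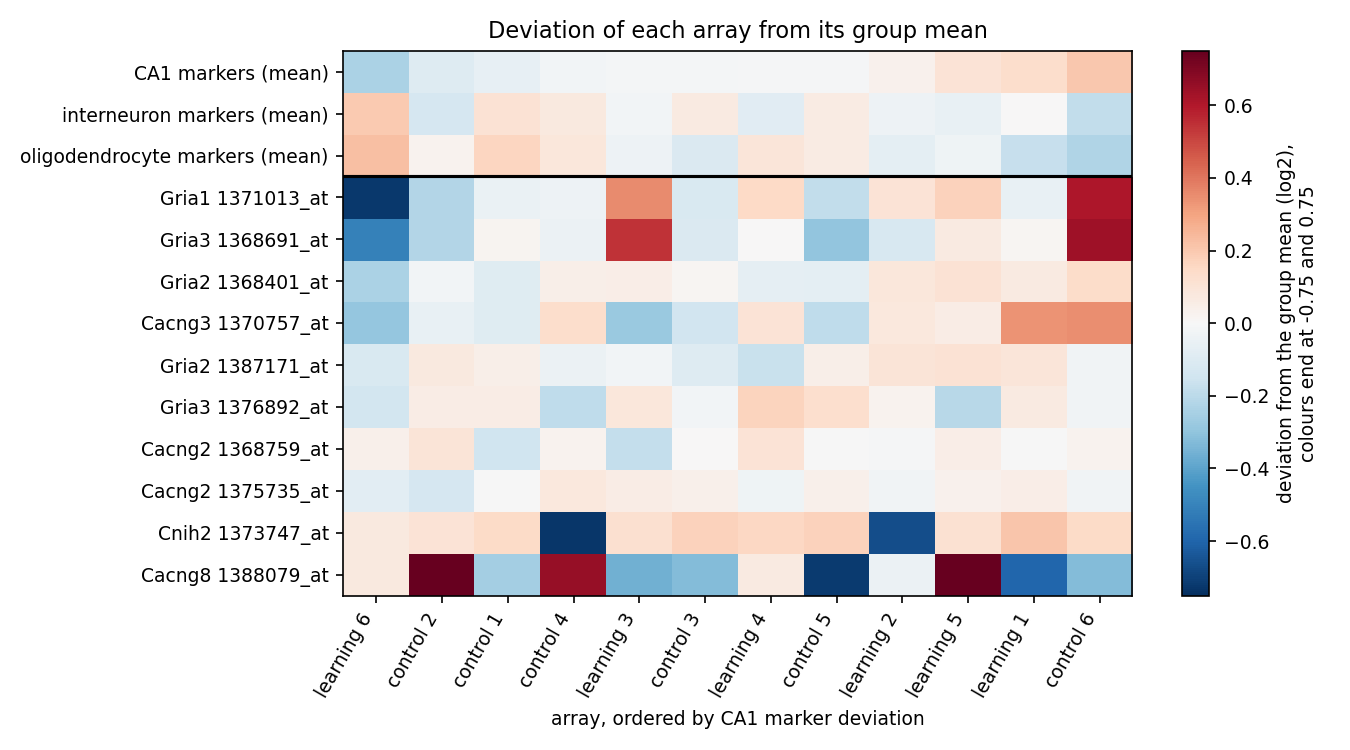
Deviation of each array from its group mean (log2, colour) for 3 marker list means and the 10 tested member probe sets (rows) in the 12 arrays (columns, in order of the CA1 marker deviation). Control array 6 and learning array 6 show opposite deviations for Gria1 (0.61 and -0.73) and the dimmer Gria3 probe set (0.64 and -0.51), and Cnih2 is low in control array 4 and learning array 2.

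For each member the genes whose levels followed it most closely were listed, as r over 12 arrays after group means were subtracted, among 6866 other genes by their brightest probe set. Gria1 was most like Pcdha13 (r = 0.95), Nsd2, a histone methyltransferase (0.93), and Nucks1, a nuclear DNA-binding protein (0.92). The alpha protocadherins share their last exons, so the Pcdha13 probe set may report several of them. Gria2 was most like Elp5 (0.92), a subunit of Elongator, Chn1 (0.89), a regulator of Rac, and Rgs12 (0.89), a regulator of G protein signalling. Gria3 was most like Rpap2 (0.91), Tfpt (0.90) and Ash1l (0.84), and Cacng8 most like Tmed4 (0.93), mrpl9 (0.91) and Hikeshi (0.89). Cacng3 was most like Dgat2 (0.91), an enzyme of triglyceride synthesis, Wipf3 (0.89) and Lmo7 (0.87). Cacng2 was most like Cstpp1 (0.92), Ppp1r9b (0.87), which encodes spinophilin of dendritic spines, and Tfip11 (0.82), but without the arrays farthest out r was 0.58, 0.34 and 0.21. Cnih2 was most like Tollip (0.88), Yif1a (0.87) and Mri1 (0.87), and without its low arrays r was -0.33, -0.41 and 0.51, so that the likeness to Tollip and Yif1a rested on those 2 arrays. At r over 0.8 there were 69 probe sets for Gria1, 47 for Gria2 (1368401_at) and 79 for the dimmer Gria3 probe set, of 9609 each. The remaining tested member probe sets had from 9 (Gria2 1387171_at) to 22 (Gria3 1376892_at). The named genes are the highest of 6866 values over 12 arrays and are given as a description.

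The genes that act on AMPA receptors were followed through 5 lists, each gene by its brightest probe set. Of 138 listed genes 109 had a probe set and 100 were bright enough to test. None of the 100 passed at an adjusted p under 0.05, beside 0% of the 6867 genes tested. Of the 100, 44 were higher and 56 lower, with a median difference of -0.01, beside 55.6% higher and a median of 0.01 over all genes. At an unadjusted p under 0.05 there were 18 (11 higher, 7 lower), or 18%, where 10% of all genes lay under that level. By list the share was 14.3% for other auxiliary subunits, 29.2% for scaffolds, 11.1% for vesicle movement, 13.6% for kinases and phosphatases and 23.1% for surface clustering and editing. The lists were chosen with earlier results of these data known, so these shares are a description and no enrichment was tested.

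Other auxiliary subunits and assembly factors had 14 tested genes, 9 higher and 5 lower, with a median of 0.03. Cpt1c, an endoplasmic reticulum protein that helps GluA1 reach the surface, was 8.59 ± 0.05 (SD, n = 6) in control arrays and 8.74 ± 0.10 in learning arrays, a difference of 0.15 (limma adjusted p = 0.406), with 5 learning arrays above every control array. Shisa7, a transmembrane protein of hippocampal receptor complexes, was 8.98 ± 0.15 and 9.18 ± 0.09, a difference of 0.21 (limma adjusted p = 0.406). Prrt1, also called SynDIG4, differed by 0.07, and Cacng7, an atypical TARP, by 0.05. Cacng7 read 4.23 in control and 4.28 in learning arrays, little above the level of 4 set for testing.

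Scaffolds and trafficking adaptors had 24 tested genes, 9 higher and 15 lower, with a median of -0.04, and 7 genes under an unadjusted p of 0.05. Their groups did not overlap for 2 genes, Mpp2 and Nsf, where 0.553% of all tested genes had groups that do not overlap. Mpp2, a postsynaptic scaffold of the MAGUK family, was 5.27 ± 0.22 (SD, n = 6) in control arrays and 4.62 ± 0.53 in learning arrays, a difference of -0.65 (SE 0.21, limma adjusted p = 0.393). Nsf, the ATPase that binds the GluA2 tail and helps keep it at the surface, was 11.99 ± 0.02 and 11.90 ± 0.05, a difference of -0.08 (SE 0.03, limma adjusted p = 0.420). The remaining Nsf probe sets differed by -0.08 and -0.04. Grip1, a scaffold for the GluA2 and GluA3 tails, differed by 0.21 (limma adjusted p = 0.409). It read 4.24 in control and 4.46 in learning arrays, little above the level of 4 set for testing. Dlg3, which encodes SAP102, differed by 0.13, with 0.09 and 0.00 in its other probe sets.

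Genes of vesicle movement and exocytosis had 27 tested, 10 higher and 17 lower, with a median of -0.02. Cplx2, a complexin that acts on SNARE-driven fusion, was 8.53 ± 0.21 (SD, n = 6) in control arrays and 7.76 ± 0.58 in learning arrays, a difference of -0.77 (limma adjusted p = 0.388). Myo5a, the motor myosin Va, differed by -0.39 (9.13 to 8.74, limma adjusted p = 0.429). Syne1 differed by 0.13, with -0.12 in its other probe set, and Syt7 by 0.12.

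Kinases and phosphatases that act on the receptor had 22 tested genes, 10 higher and 12 lower, with a median of -0.00. Camk2a, the kinase that phosphorylates GluA1 and TARPs, was 11.24 ± 0.62 (SD, n = 6) in control arrays and 11.83 ± 0.27 in learning arrays, a difference of 0.59 (limma adjusted p = 0.434). Its other probe sets differed by -0.17 and 0.13, so the direction of Camk2a is not settled. Prkcb differed by 0.12 (0.10 in its other probe set), Ppp3ca, a catalytic subunit of calcineurin, by 0.07 (0.07), and Prkar2b by -0.11.

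Surface clustering and RNA editing genes had 13 tested, 6 higher and 7 lower, with a median of -0.01. Adarb1, the enzyme that edits the Gria2 transcript at its calcium site, was 9.86 ± 0.18 (SD, n = 6) in control arrays and 9.63 ± 0.13 in learning arrays, a difference of -0.22 (limma adjusted p = 0.429), and its other probe set differed by -0.40 (limma adjusted p = 0.437). Adar, a related editing enzyme, differed by 0.09, with -0.19 in its other probe set. Cpeb1 differed by 0.17 and Nrxn3 by -0.20. The arrays do not measure editing itself.

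**Figure D5:**
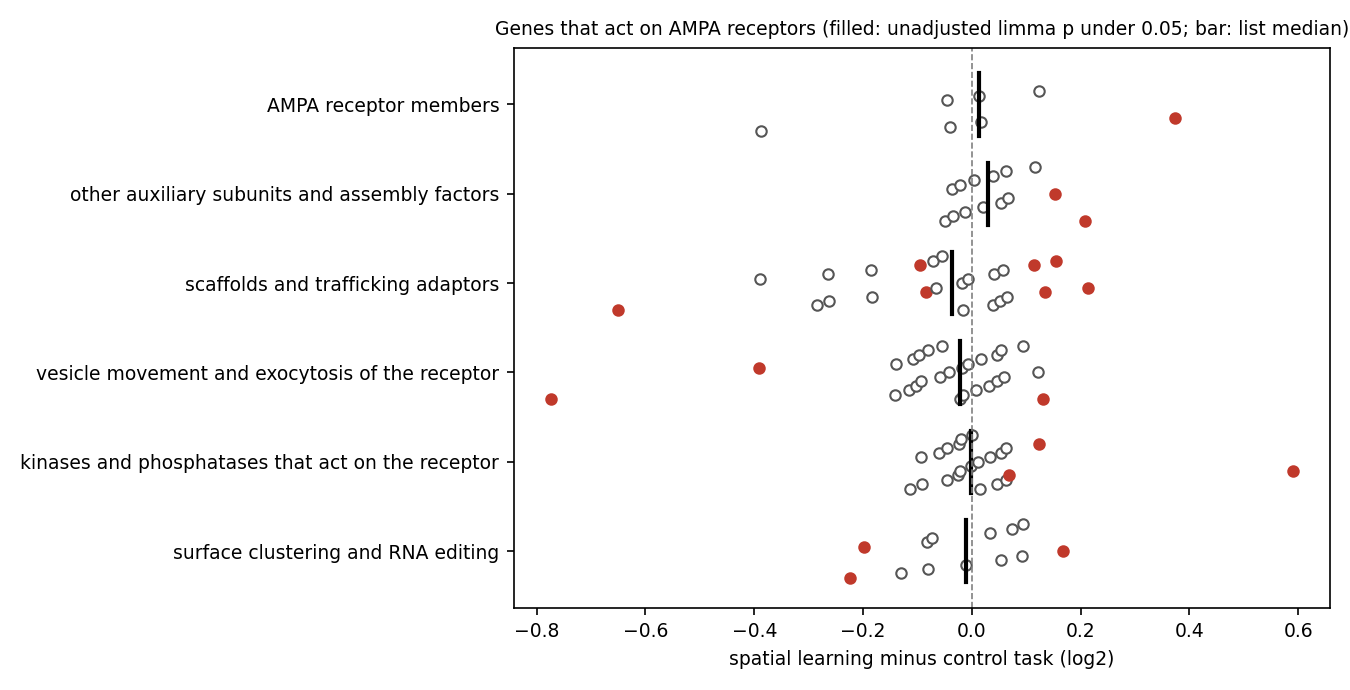
Differences of the tested genes of each list, spatial learning minus control task (log2, horizontal axis), each gene by its brightest probe set, with the list median as a bar and genes with an unadjusted p under 0.05 filled. List medians lie between -0.04 and 0.03, and the genes farthest out are Cplx2 (-0.77), Mpp2 (-0.65) and Camk2a (0.59).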

How the data were processed

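The authors' deposited values are log2 probe set signals from 12 arrays, made with GCRMA per the submitters' processing notes. GCRMA corrects each probe for background by its sequence, evens the arrays' distributions and summarises each probe set, so a change in total RNA cannot be seen. Neither its version and settings nor scan dates and batches are given in the sources used here. Arrays were grouped by their titles. Of 15866 probe sets that are not controls, 12783 had a single symbol in the platform annotation.

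Probe sets averaging 4 or more (log2) across the 12 arrays, 9610 in all, were compared by limma 3.58.1 (lmFit, eBayes with an intensity trend, 2-sided; R 4.3.3), with Benjamini-Hochberg adjustment over all of them and a threshold of 0.05. Gaps between a gene's probe sets and levels relative to Gria2 were fitted likewise over the whole table. Single differences also had exact permutation tests. The number of arrays limits the precision. In simulated data for this comparison (9605 probe sets tested), 79 of 100 changes of 0.5 and 96 of 100 changes of 1 were recovered, with 9 unchanged probe sets called. All changes were planted at once, in probe sets clear of the test level, with noise drawn separately for each probe set. In the real arrays probe sets vary together, and fewer true changes make the adjustment stricter, so these shares may overstate recovery.

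Members and lists were chosen with earlier results of these data known. Named genes were all members, the 4 genes of each list with the smallest p, and for likeness the 3 genes with the highest r. Alternatives changed the filter, normalization, variance model, array weights, test, block, covariates and arrays.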

Additional observations from a re-analysis of the deposited data

Results flagged for a closer look

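Of 22 groups of 6 arrays checked (11 member probe sets in each group), 5 held an array whose gap to its nearest neighbour took up more of the group's whole range than Dixon's 95% critical value allows. Chance alone flags about 1 in 20 groups when values are normal and groups independent, but these groups share arrays. The share over all tested probe sets is not given here, so the count shows no excess particular to the members. Control array 6 read 11.55 for Gria1 (nearest 10.91, gap 0.778 of the range) and 9.10 for the dimmer Gria3 probe set (nearest 8.48, gap 0.662). Control array 4 read 11.01 for Cnih2 (nearest 11.84, gap 0.918) and 2.64 for Gria4 (nearest 2.52, gap 0.640), the latter far below the level tested. Learning array 2 read 11.20 for Cnih2 (nearest 11.94, gap 0.846).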

How the results depend on the processing

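No member probe set was called under any of the 25 alternatives run, and no gene of the 5 lists under any of 26; the rank-sum alternative could make no call here and says nothing on this. Over all probe sets the count called, 0, became 3 with array weights, 5 without control arrays 3 and 6 and learning array 6, and 1 with the oligodendrocyte marker mean as a covariate, and ran from 0 to 3 when each array was left out in turn (3 without control array 6). The count of gene pairs of probe sets that disagreed, 3, became 0 with no filter, with the replicate block, and with the hexokinase gap, CA1 or oligodendrocyte covariate, and ran from 0 to 4 when each array was left out. The count relative to Gria2, 1, became 0 without the intensity trend, with the hexokinase covariate and with the other Gria2 reference, 14 with array weights, 6 with the replicate block, 6 without the 3 arrays and 2473 with the CA1 covariate, under which the Gria2 reference itself had a difference of -0.20, and ran from 0 to 4 when each array was left out. The Cacng3 difference, 0.37, ran from 0.08 (CA1 covariate) to 0.48 (without the 3 arrays) and from 0.31 to 0.44 when each array was left out, always above 0, with limma adjusted p from 0.145 to 0.931. The Cacng8 difference, -0.39, ran from -0.56 to -0.17, and from -0.56 to -0.19 when each array was left out. Differences near 0 changed sign. With the hexokinase covariate Gria2 1368401_at was 0.011, Gria3 1376892_at 0.0066, Cacng2 1375735_at 0.023 and the Cacng2 gap -0.0096. Without the 3 arrays Gria2 1368401_at was 0.045. With the CA1 covariate Gria1 was -0.46, Gria2 1387171_at -0.0016, Gria3 1368691_at -0.38 and the Gria3 gap 0.32, and with the oligodendrocyte covariate Gria1 was -0.034 and Gria3 1368691_at -0.036. Leaving out each array in turn gave -0.055 to 0.16 for Gria1, -0.061 to 0.0078 for Gria2 1368401_at, -0.10 to 0.14 for Gria3 1368691_at, -0.017 to 0.048 for Cacng2 1368759_at, -0.022 to 0.26 for Cnih2 and -0.19 to 0.038 for the Gria3 gap. The causes of these changes were not tested. Marker covariates and the other reference were added after the values were seen. Arrays of the same replicate number did not deviate together (r from -0.17 to 0.08 over the 6 pairs). The best r of a control array with any learning array reached only 0.15, so this measure cannot tell whether the numbers pair animals. With the replicate block Cacng3 was 0.37 (limma adjusted p = 0.575) and 0 members were called.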
